A study of Mus musculus with 16 samples.

Results

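Transcripts of Schwann cells and cardiac nerves were examined in mouse ventricles with and without chronic kidney disease (CKD). The genes were taken by name: Mbp, S100b, Sox10, Gfra3, Kcna1 and Scn7a, which are 6 of the 33399 genes counted. All 6 had enough reads to be tested, together with 16400 genes in all. None of the 6 differed between CKD and control mice past an adjusted p of 0.05, in both sexes together or in either sex. The precision differs between the 6: Scn7a was counted at 121 to 771 reads per library, Mbp at 31 to 89, and the other 4 at 36 reads or fewer.

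The ventricles came from 16 wild-type C57BL/6 mice with 4 control and 4 CKD animals of each sex. From an age of 8 weeks the CKD mice alternated between chow with 0.25% adenine and standard chow for 6 weeks, and the controls ate standard chow throughout. Adenine given this way injures the kidney tubules, so the model is a dietary one with no transgene, and the genotype is shared by all groups. The sample records also set goals for blood urea nitrogen and for loss of body weight in the CKD mice, and none in the controls. The part of weight loss in the values below was not tested. Remodelling that favours arrhythmia is the subject the series title gives, and the comparison here asks whether the glial and nerve transcripts of the ventricle differ with CKD. Mice are named here by group and by their place in the sample records, as in male CKD mouse 4.

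Cardiac sympathetic, parasympathetic and sensory axons run through the ventricle wall in bundles wrapped by Schwann cells, the glia of the peripheral nervous system. Myelinating Schwann cells insulate 1 large axon each, while non-myelinating (Remak) cells hold several thin axons, the usual form in the heart. The cell bodies of sympathetic and sensory neurons lie in ganglia outside the ventricle, so a ventricle sample holds the glia in full but little of the neuronal RNA. In RNA from whole tissue, fewer cells of a type and less RNA per cell cannot be told apart.

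The libraries held 10203707 to 13626039 counts. Of the 16400 genes tested, 14 (0.0854%) passed the threshold for CKD against control. Heart muscle RNA was plain in all 16 libraries. There 8 cardiomyocyte genes such as Myh6 and Tnnt2 summed to 28560 to 46540 CPM (counts scaled to a library of common size). This sum does not tell ventricle from atrium. A set of 5 atrial genes, among them Myl7 and Nppa, was uneven. It summed to 153.8 CPM in male CKD mouse 3 and to 866.4 CPM in male control mouse 3, the lowest and highest values. Whether the samples held differing amounts of atrial tissue was not tested. The library of male CKD mouse 4 stood apart from the other 15. It had the highest cardiomyocyte sum, and the lowest sums for 10 fibroblast genes (533 CPM against 1409 to 2378 in the others) and 9 endothelial genes (380.5 CPM against 657 to 1100). It was kept in the comparisons. Without it the median log2 fold change of the 6 genes in males was -0.07 in place of -0.27, and that of the fibroblast and endothelial genes over both sexes was -0.29 and -0.28 in place of -0.41 and -0.30.

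Levels of different genes were compared as CPM per kilobase of exon, since a longer transcript yields more reads. Scn7a was the most abundant of the 6 on this scale, at 6.28 ± 1.69 CPM per kilobase (SD, n = 16), and lay above S100b in all 16 libraries. S100b followed at 1.04 ± 0.333 CPM per kilobase and was above Gfra3 in 15 libraries. Gfra3, at 0.688 ± 0.256, exceeded Mbp, at 0.578 ± 0.116, in 11 of 16 libraries, so this pair is not separated by more than its spread. Mbp was above Kcna1 in 15 libraries. Kcna1, at 0.317 ± 0.152, and Sox10, at 0.286 ± 0.144, could not be ordered, since Kcna1 was the higher in 8 of 16 libraries.

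Several genes that mark Schwann cells were read in every library, others had libraries at 0, and most genes specific to compact myelin were near 0. Of 16 Schwann cell genes besides the 6, 11 passed the filter on low counts, while Foxd3 had 6, Gfap 5 and Sox2 9 libraries at 0. Erbb3, the receptor through which neuregulin signals to Schwann cells, had 3612 counts over the 16 libraries and 3.14 CPM per kilobase. Cdh19, a cadherin of Schwann cells and their precursors, had 1552 counts and 1.89 CPM per kilobase. By contrast Mag, a myelin glycoprotein, had 16 counts in all 16 libraries together (0.02 CPM per kilobase). Pmp2, a lipid-binding protein of peripheral myelin, had 3, but 86.9% of its exon length is shared with another annotated gene, so this count is uncertain. Of 16 myelin genes counted, 5 passed the filter on low counts: Pmp22, Mal, Cnp, Prx and Egr2. Pmp22, Mal and Cnp are also made by cells other than glia. Markers of other cells that share these genes were uneven. Mog, Mobp and Olig1, which mark the oligodendrocytes of the brain, had 11, 28 and 1 counts, but Myrf of the same list had 634. The pigment cell genes Tyr, Tyrp1 and Pmel had 9, 45 and 97, while Dct, a melanin enzyme, had 1020 and the transcription factor Mitf, which other cells also make, had 17253. The pigment cell list summed to 66.3 to 141.3 CPM, most of it Mitf. The part of these cells in the 6 genes was not tested.

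**Figure D1:**
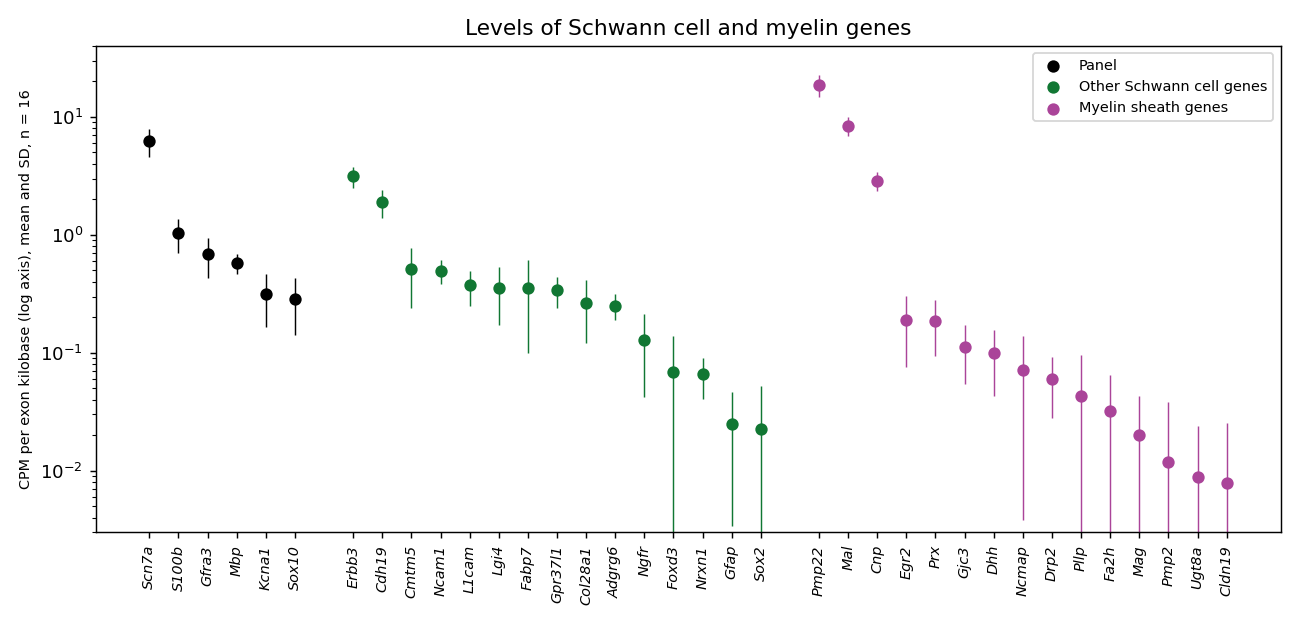
Mean level of the genes over the 16 libraries in CPM per kilobase of exon, on a log axis, with bars of 1 SD (bars that reach the lower edge extend below it). The 6 genes described here are black, other Schwann cell genes green and myelin sheath genes purple. Scn7a stands at 6.28 and Sox10 at 0.286 CPM per kilobase, while Mag and Pmp2 lie below all 6.

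Mbp and S100b encode structural and calcium-binding proteins of glia. Mbp (GRCm38 18:82475146-82585637, plus strand) encodes myelin basic protein, which holds the inner faces of the myelin membrane together. In male controls Mbp stood at 4.49, 5.26, 5.90 and 6.22 CPM, and in male CKD mice at 6.52, 4.40, 4.29 and 2.94 CPM. Female controls had 4.93, 5.34, 4.51 and 4.63 CPM, and female CKD mice 3.14, 5.25, 5.71 and 4.81 CPM. The groups overlapped: male CKD mouse 1 had the highest and male CKD mouse 4 the lowest value of all 16. The log2 fold change for CKD over control was -0.15 (SE 0.16, 95% interval -0.48 to 0.18), with an adjusted p of 0.665 in edgeR's quasi-likelihood F test. It was -0.07 (SE 0.14) without male CKD mouse 4, -0.08 without female CKD mouse 1 and -0.24 without male CKD mouse 1.

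S100b (10:76253853-76261159, plus strand) encodes a small calcium-binding protein that is abundant in Schwann cells and other glia. It read 1.93, 1.66, 2.16 and 1.23 CPM in male controls and 1.32, 2.12, 1.52 and 0.758 CPM in male CKD mice. In female controls it read 2.04, 2.28, 1.31 and 1.58 CPM, and in female CKD mice 1.19, 0.707, 1.04 and 1.85 CPM. Of the 8 CKD libraries 4 were below the lowest control and none was above the highest. S100b had the lowest p of the 6 genes in this comparison: the log2 fold change was -0.43 (SE 0.22, interval -0.90 to 0.04), with an unadjusted p of 0.0731 and an adjusted p of 0.368 in the same edgeR test. In the 10 libraries whose sample titles carry the code number 6 it was -0.67 (SE 0.23, adjusted p 0.268). The meaning of that number is not known here. Over all alternatives run, the log2 fold change of S100b lay between -0.67 and -0.27.

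Sox10 (15:79154908-79165240, minus strand) encodes the transcription factor that Schwann cells need from their origin in the neural crest onwards. It was the least counted of the 6, with 2 to 22 reads per library, and 2 reads are below the 3 that were taken as the floor for detection. Male controls had 0.642, 1.08, 1.83 and 1.23 CPM and male CKD mice 0.806, 1.22, 0.983 and 0.569 CPM. Female controls had 0.595, 0.175, 0.983 and 1.08 CPM and female CKD mice 0.170, 0.606, 0.593 and 1.39 CPM. All 4 groups overlapped, and both libraries with 2 reads, 1 control and 1 CKD, were female. The log2 fold change for CKD was -0.24 (SE 0.35, interval -0.99 to 0.50; adjusted p 0.761 in the edgeR test). It ran from -0.47 without female CKD mouse 4 to -0.08 without male control mouse 3, and was -0.04 once the GC and length trends of each library had been removed.

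Gfra3 (18:34689898-34720387, minus strand) encodes the co-receptor that binds artemin, a growth factor for sympathetic and sensory axons, and passes the signal through the kinase Ret. Male controls had 1.43, 0.938, 2.16 and 2.17 CPM and male CKD mice 1.61, 2.12, 0.894 and 0.569 CPM. Female controls had 1.36, 1.40, 1.72 and 1.28 CPM, and female CKD mice 1.36, 0.909, 0.593 and 1.48 CPM. The ranges overlapped, with 4 of the 8 CKD libraries below the lowest control, 2 of each sex, and none above the highest. The log2 fold change was -0.37 (SE 0.26, interval -0.92 to 0.18, adjusted p 0.509 in the edgeR test). Over all alternatives run it lay between -0.55 and -0.24.

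Kcna1 and Scn7a encode ion channels of axons and glia. Kcna1 (6:126640397-126646384, minus strand) encodes Kv1.1, a voltage-gated potassium channel that sits beside the nodes of myelinated axons. It read 1.43, 1.51, 0.997 and 1.98 CPM in male controls and 2.20, 2.94, 0.804 and 0.190 CPM in male CKD mice. Female controls had 1.53, 2.37, 2.21 and 1.28 CPM and female CKD mice 1.10, 0.909, 0.741 and 2.03 CPM. Male CKD mice spanned the whole range of the gene, from 2 reads in mouse 4 to 36 in mouse 2. In females 3 of the 4 CKD values lay below the lowest control. The log2 fold change over both sexes was -0.27 (SE 0.36, interval -1.02 to 0.48; adjusted p 0.736 in the edgeR test). Without male CKD mouse 4 it was -0.11 (SE 0.30). Within the libraries with title code number 6 it was -0.63 (SE 0.33, adjusted p 0.462 in the edgeR test). Over all alternatives run it lay between -0.63 and -0.0145.

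Scn7a (2:66673425-66784914, minus strand) encodes Nax, a sodium channel relative that responds to the sodium level outside the cell and is known from non-myelinating Schwann cells. Which cells of the ventricle its reads came from was not tested. Male controls had 43.7, 55.6, 35.5 and 34.2 CPM and male CKD mice 44.5, 57.8, 58.8 and 11.5 CPM. Female controls had 48.7, 60.9, 44.7 and 38.6 CPM and female CKD mice 57.6, 44.1, 49.95 and 50.8 CPM. All values other than that of male CKD mouse 4 lay between 34.2 and 60.9 CPM, and 7 of the 8 CKD values were inside the control range. The log2 fold change was 0.05 (SE 0.23, interval -0.43 to 0.53; adjusted p 0.926 in the edgeR test). Leaving out that library gave 0.19 with a smaller SE of 0.13 (adjusted p 0.515).

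**Figure D2:**
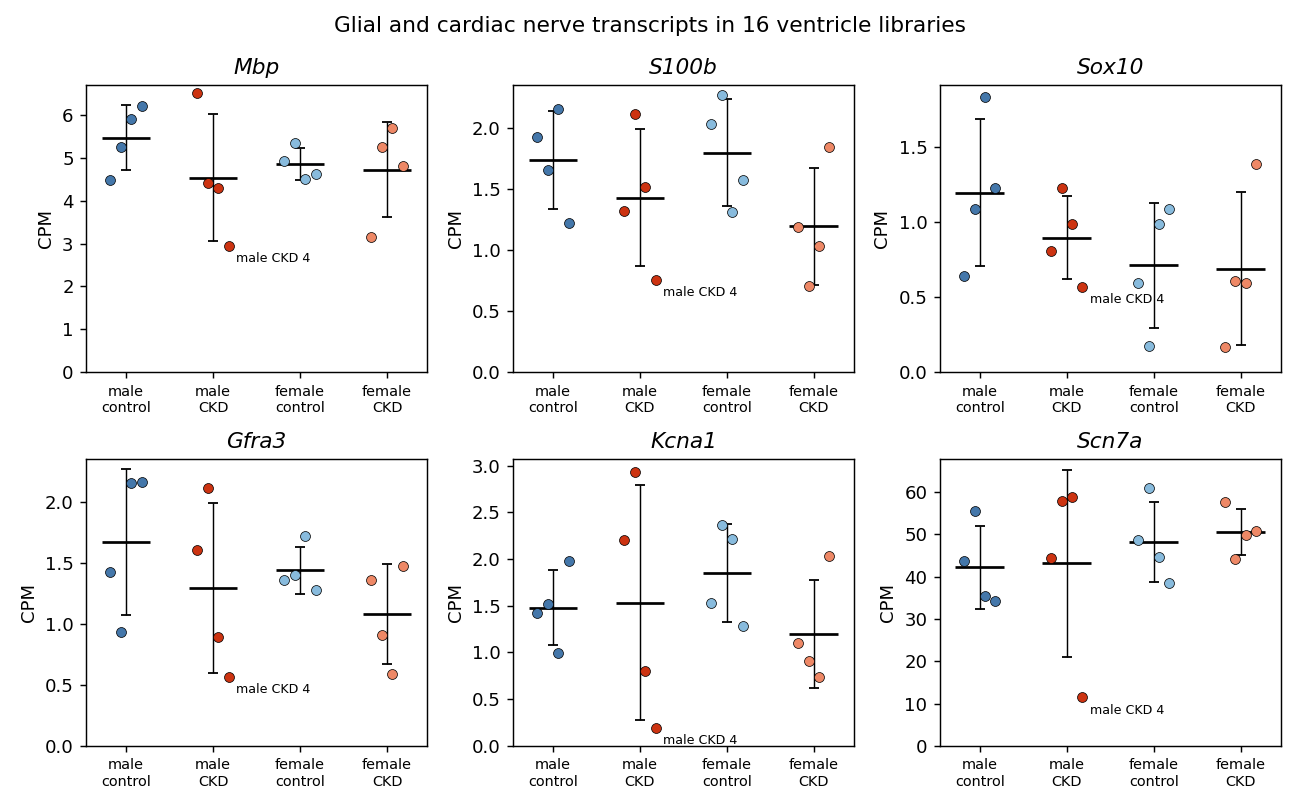
CPM of each of the 6 genes in each library (points), by group of 4 mice, with the group mean (line) and SD (bars), on linear axes from 0. The control and CKD points overlap for every gene in males and in females, and male CKD mouse 4 is the lowest point for Mbp, Gfra3, Kcna1 and Scn7a.

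Of the 6 genes 5 had a negative fold change for CKD, beside 49.8% of all genes tested, and their median log2 fold change was -0.25 beside 0.0017 over all genes. No gene of the 6 was called, beside 0.0854% of all genes, and 0 of 6 had an unadjusted p under 0.05, beside 15.4% of all genes. DESeq2 and limma-voom, which called 2.43% and 1.21% of all genes, also called 0 of 6. The median was -0.13 without male CKD mouse 4, -0.17 without female CKD mouse 1 and -0.16 without male CKD mouse 4 and female control mouse 2. It was -0.41 without female CKD mouse 4, -0.45 with 6 of 6 negative without male CKD mouse 2, and -0.11 with GC and length trends removed. With the title code number as a factor, where 1.43% of all genes and none of the 6 were called, all 6 fold changes were negative with a median of -0.36, and within title code number 6 the count was 4 of 6 with a median of -0.25.

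The sexes were read separately in a model of the 4 groups. In males, where 0% of all genes were called, the 6 log2 fold changes ran from -0.39 (SE 0.48) for Sox10 to 0.09 (SE 0.50) for Kcna1, and 0 of 6 had an unadjusted p under 0.05, beside 6.88% of genes. Without male CKD mouse 4 the value of Kcna1 in males was 0.45 (SE 0.40) and that of Scn7a 0.36 (SE 0.19). In females, where 0.0549% of all genes were called, they ran from -0.64 (SE 0.51) for Kcna1 to 0.07 (SE 0.33) for Scn7a, and S100b stood at -0.59 (SE 0.33; adjusted p 0.662 in the edgeR test). Again 0 of 6 had an unadjusted p under 0.05, beside 8.34% of genes. In females 1 of 6 did so in limma-voom, 1 without female CKD mouse 4 and 2 within title code number 6. Of all genes 0.335%, 0.0482% and 0.0181% were called there. In males 1 of 6 did so without male CKD mouse 1. Within title code number 6 all 6 fold changes were negative in females (median -0.53), and 1 of 6 was in males (median 0.07). The largest difference between the sexes in the effect of CKD was that of Kcna1, at -0.73 in females minus males (SE 0.71, interval -2.24 to 0.78), and -1.11 (SE 0.56) without male CKD mouse 4. For this difference DESeq2, limma-voom and edgeR each called 0 of 6 and 0% of all genes, and 0 of the 6 had an unadjusted p under 0.05, beside 1.68% of genes.

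Female and male mice were also compared over both diets. Sox10 had the largest difference of the 6, at 1.05 ± 0.402 CPM in males and 0.699 ± 0.429 CPM in females (SD, n = 8 each). Its log2 fold change was -0.58 (SE 0.35; adjusted p 0.315 in edgeR's quasi-likelihood F test), and after removal of GC and length trends from each library it was 0.12. For the other 5 genes the value lay between -0.24 for Gfra3 and 0.21 for Scn7a. Of the 6 genes 0 passed the threshold, beside 0.171% of all genes, and 0 had an unadjusted p under 0.05, beside 25.2%. DESeq2 called 10.2% of the 14490 genes that it gave an adjusted p for this contrast, and limma-voom 16.6% of all 16400. Both called 0 of the 6 genes. An unadjusted p under 0.05 was found for 0 of 6 in DESeq2 and 1 of 6 in limma-voom.

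**Figure D3:**
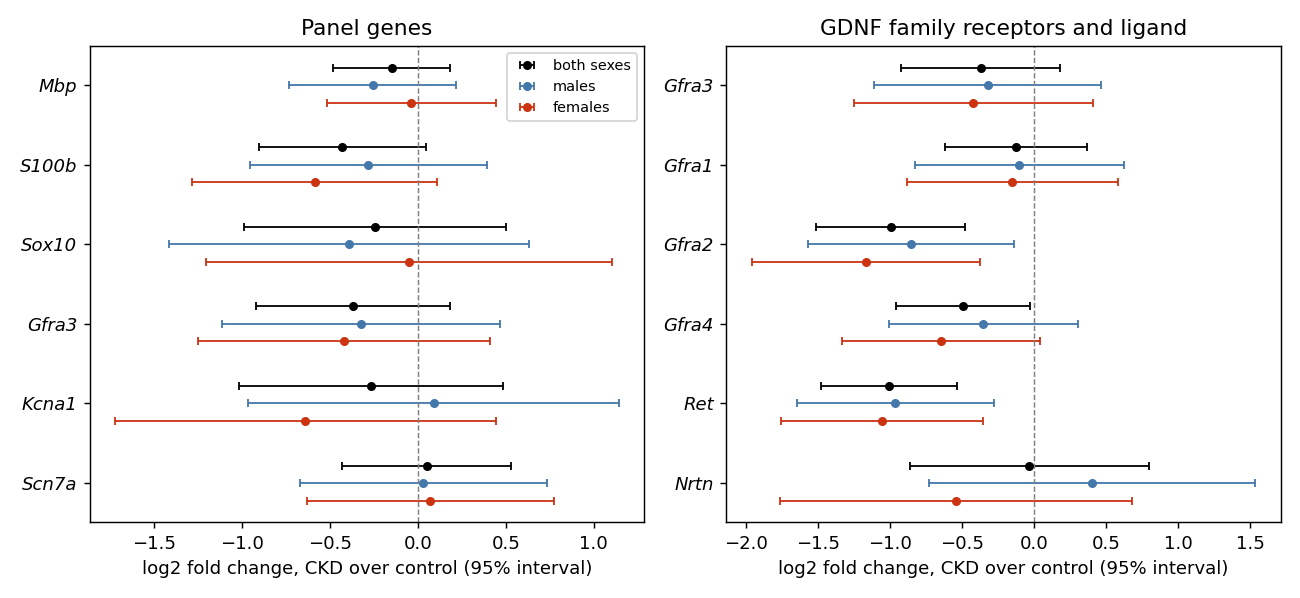
Log2 fold change of CKD over control with its 95% interval, for both sexes (black), males (blue) and females (red). The left panel shows the 6 genes described here, whose intervals all hold 0. The right panel shows Gfra3 beside the other receptors and a ligand of its family, where the intervals of Ret, Gfra2 and Gfra4 over both sexes lie below 0 although none of them passed the adjusted threshold in edgeR.

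Gfra3 belongs to a receptor system in which 4 co-receptors, Gfra1 to Gfra4, each bind a preferred ligand of the GDNF family and signal through Ret. Its own ligand, artemin (Artn), had 9 counts in the 16 libraries. In a list of 18 neurotrophic ligands and receptors 14 were tested. Of these 12 had a negative and 2 a positive fold change, beside 49.8% negative over all genes. The median was -0.25 beside 0.0017 over all genes. None passed the adjusted threshold. Of the 14, 3 had an unadjusted p under 0.05 and all 3 were lower (Ret, Gfra2 and Gfra4), beside 7.24% of all genes in that direction.

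Ret, Gfra2 and Gfra1 were chosen for description after their values were seen. Ret, the shared signalling kinase, ran from 2.54 to 7.93 CPM with a median of 5.59 in the 8 controls, and from 1.41 to 3.93 CPM with a median of 2.555 in the 8 CKD mice. The ranges overlapped, with 4 of 8 CKD values below every control and all 8 below the control median. The means were 5.37 ± 1.69 and 2.67 ± 0.842 CPM (SD, n = 8 each), a log2 fold change of -1.01 (SE 0.23, interval -1.48 to -0.53). The adjusted p was 0.0946 in edgeR's quasi-likelihood F test. It was 0.00555 in DESeq2, 0.036 with no filter on low counts and 0.03998 without female control mouse 2, and 0.23 in the 10 libraries with title code number 6. Male mice gave a fold change of -0.96 (SE 0.32), female mice -1.06 (SE 0.33), and its difference between the sexes was -0.09 (SE 0.46).

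Gfra2, the co-receptor for neurturin, was near the limit of counting at 3 to 27 reads per library. It had 1.28 ± 0.483 CPM in controls and 0.631 ± 0.219 CPM in CKD mice (SD, n = 8 each), with 4 of 8 CKD values below every control. The log2 fold change was -0.99 (SE 0.25; adjusted p 0.0946 in edgeR and 0.0414 in DESeq2), and -0.69 within title code number 6 (adjusted p 0.357). Gfra4, the co-receptor for persephin, had -0.49 (SE 0.22; adjusted p 0.296 in edgeR). Gfra1, the co-receptor for GDNF, had -0.13 (SE 0.24), with 2 CKD values below and 3 above all controls. Its lowest value, 2.65 CPM, was that of male CKD mouse 4, beside 7.975 to 15.1 CPM in the others, and without that library the log2 fold change was 0.02 (SE 0.13). Neurturin (Nrtn) had -0.03 (SE 0.40). Neurotrophin-3 (Ntf3) stood at 3.35 ± 0.583 CPM in controls and 4.20 ± 1.32 CPM in CKD mice, a log2 fold change of 0.33 (SE 0.19) that also missed the threshold.

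Of 16 other Schwann cell genes 11 were tested, with 9 negative and 2 positive values, beside 49.8% negative over all genes. None passed the adjusted threshold in edgeR, beside 0.0854% of all genes, or in DESeq2 and limma-voom, beside 2.43% and 1.21%. An unadjusted p under 0.05 in the edgeR test was found for 0 of 11, beside 15.4% of all genes. The median of the 11 was -0.06 beside 0.0017 over all genes. Erbb3 stood at 20.1 ± 4.25 CPM in controls and 17.7 ± 2.90 CPM in CKD mice, a log2 fold change of -0.19 (SE 0.14). Cdh19 was at -0.03 (SE 0.22), with 4 of 8 CKD values below the control median. Cmtm5, a membrane protein found in glia, was at 0.36 (SE 0.35).

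Of the 5 tested myelin genes 0 passed the adjusted threshold in edgeR, DESeq2 or limma-voom, beside 0.0854%, 2.43% and 1.21% of all genes. An unadjusted p under 0.05 in edgeR was found for 0 of 5, beside 15.4% of all genes. All 5 had negative values, beside 49.8% of all genes, with a median of -0.20 beside 0.0017. Egr2, the transcription factor that switches on myelin genes in Schwann cells and is also an early response gene elsewhere, had the largest, at -0.78 (SE 0.40; adjusted p 0.358). It was -1.34 without male CKD mouse 2 (adjusted p 0.0983), -1.29 with the title code number as a factor (0.0584, the lowest edgeR gave over the alternatives) and -1.58 within title code number 6 (0.158). It ranged from 0.499 to 1.065 CPM in controls and from 0.101 to 1.55 CPM in CKD mice, so that 5 CKD values lay below and 1 above all controls. These values were near the limit of counting, at 7 to 13 reads per library in controls and 1 to 19 in CKD mice. The lowest was below the floor of 3 counts. Pmp22 stood at 46.9 ± 6.87 CPM in controls and 40.95 ± 10.4 CPM in CKD mice (log2 fold change -0.20, SE 0.12). Mal had -0.10 and Cnp -0.19.

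Partners of Kcna1 and other axonal channels were divided evenly: of 17 genes 12 were tested, 6 with positive and 6 with negative values and a median of 0.02. Adam22, which anchors Kv1 channels at the axon, had 0.45 (SE 0.20; unadjusted p 0.0378, adjusted p 0.292 in the edgeR test), and was the 1 member of 12 with an unadjusted p under 0.05, beside 15.4% of all genes. Kcna5, a potassium channel of the same family that is carried by atrial and ventricular muscle in the mouse, had -0.10 (SE 0.23). Cntn2, a cell adhesion protein of axons and of the conduction system, had -0.12 (SE 0.25), and Scn10a, a sodium channel of sensory neurons, had 0.18 (SE 0.16). Cntnap2, which clusters Kv1 channels beside the node, had 1 count in all libraries.

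Among 14 axon guidance genes, all tested, 8 had negative values (median -0.11), and 4 had an unadjusted p under 0.05, all lower, beside 7.24% of all genes: Nrp2, Plxnd1, Robo2 and Unc5b, of which Plxnd1 alone was not chosen by its values. None passed the adjusted threshold in edgeR. Plxnd1, a semaphorin receptor that is also made by endothelium, stood at 83.7 ± 48.4 CPM in controls and 45.4 ± 16.2 CPM in CKD mice (log2 fold change -0.88, SE 0.33; adjusted p 0.215, and -0.57 both within title code number 6 and with GC and length trends removed). Nrp2, a co-receptor for semaphorins and chosen here after its values were seen, stood at 45.9 ± 12.9 and 24.98 ± 9.995 CPM (log2 fold change -0.88, SE 0.25; adjusted p 0.123 in edgeR and 0.031 in DESeq2). Nrp1, Ntn1 and Plxna2, the other abundant members, had -0.0047, 0.21 and -0.21.

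Transcripts of the neurons themselves were scarce. Of 24 neuron and axon genes counted, 7 were tested. Th, the first enzyme of noradrenaline synthesis, had 1 count in all 16 libraries, Slc6a2, the noradrenaline transporter, 29, and the axon filament gene Nefl 28, which is uncertain since 32.8% of its exon length is overlapped by Nefm on the other strand. Of the 7 tested, 4 had negative values (median -0.29) and 0 passed the adjusted threshold. Ddc, an enzyme of monoamine synthesis, had 0.42 (SE 0.16; unadjusted p 0.0182), and Dbh, which makes noradrenaline from dopamine and is named after its values were seen, had -0.59 (SE 0.27; unadjusted p 0.0403), the 2 of 7 under 0.05, beside 15.4% of all genes. Stmn2, a protein of growing axons, had -0.32 (SE 0.20), Uchl1, a neuronal ubiquitin hydrolase, 0.05 and Tac1, the precursor of substance P, 0.25.

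S100b also belongs to a family of calcium-binding proteins, of which 7 others were tested, with 4 negative values and a median of -0.14. S100a1, the form of heart muscle, stood at 447 ± 42.8 CPM in controls and 467 ± 102.5 CPM in CKD mice (log2 fold change 0.06). S100a11 and S100a16, which are made by many cell types, had -0.49 (SE 0.15; adjusted p 0.138) and -0.24 (SE 0.09; adjusted p 0.22), each with an unadjusted p under 0.05 (2 of 7, beside 7.24% of all genes in that direction). For both, 6 of 8 CKD values were below the lowest control. S100a13 had 0.18.

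The library of male CKD mouse 4 was the lowest of all 16 for 4 of the 6 genes, beside 16.1% of all genes tested. Scn7a was at 0.236 of the median of the other 15 libraries there, Kcna1 at 0.125, Gfra3 at 0.406, S100b at 0.481, Sox10 at 0.579 and Mbp at 0.596. Other Schwann cell genes were divided. Lgi4 and Ncam1 are named here after their values were seen. Cdh19 was at 0.258 of that median and Lgi4, a protein that Schwann cells secrete and whose exons Fxyd3 overlaps over 44.9% on the other strand, at 0.116, while Erbb3 was at 0.71 and Ncam1, an adhesion protein, at 1.12. The 16 genes of the Schwann cell list summed to 36.1 CPM there, the lowest of the 16 libraries, beside 42.3 to 61.0 CPM. Over whole lists the ratio to the median was 0.692 for the 16 Schwann cell genes, 0.6395 for the 16 myelin genes, 0.265 for fibroblast, 0.412 for endothelial, 0.489 for pericyte and smooth muscle, 0.56 for macrophage, 0.526 for lymphocyte and 1.35 for cardiomyocyte genes. The part of any of these in the low values of the 6 genes was not tested.

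**Figure D4:**
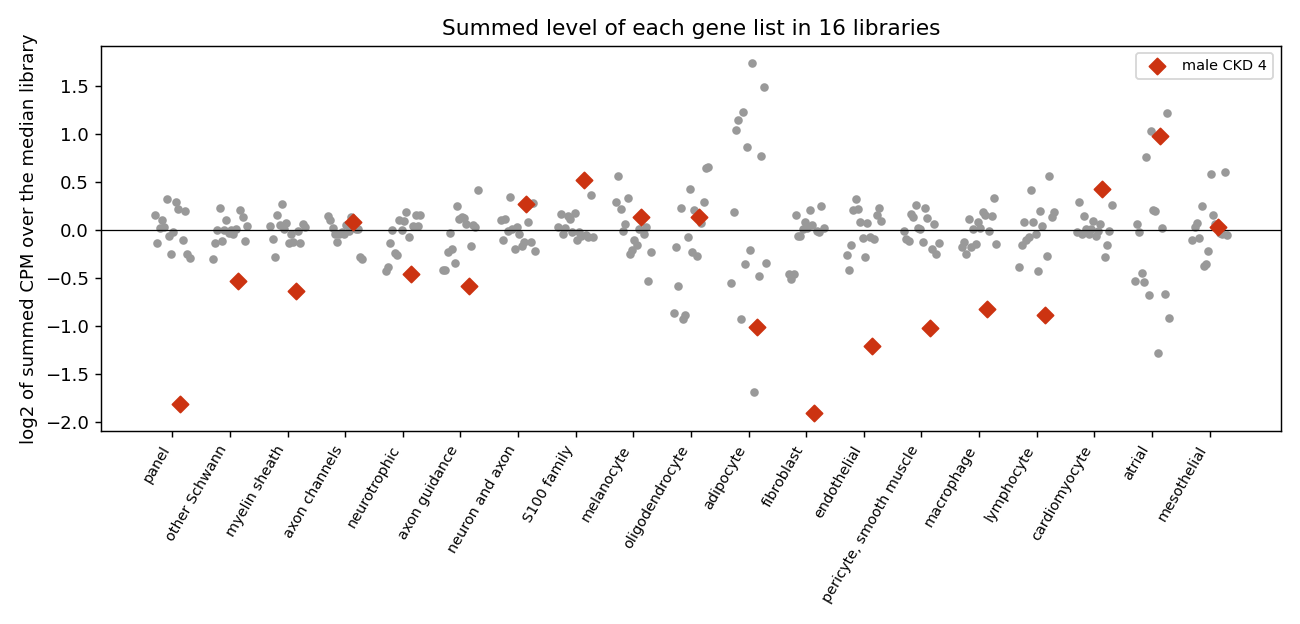
Summed CPM of each gene list in each library as log2 of the ratio to the median library (grey points), with male CKD mouse 4 as a red diamond. The diamond is the lowest point for the 6 genes described here, for the other Schwann cell, myelin, neurotrophic and axon guidance lists and for the fibroblast, endothelial, mural and immune lists, and the highest for the cardiomyocyte and S100 lists.

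Markers of other cell types were compared in the same way. All 10 fibroblast genes had negative values for CKD, with a median of -0.41, as did all 9 endothelial genes (median -0.30) and all 6 tested lymphocyte genes (median -0.50). Over all genes tested 49.8% had a negative value, and the median was 0.0017. Negative values were also found for 7 of 8 pericyte and smooth muscle genes (median -0.15) and 6 of 7 macrophage genes (median -0.10), while 6 of 8 cardiomyocyte genes had positive ones (median 0.12). Without male CKD mouse 4 the medians were -0.11 for pericyte and smooth muscle, -0.0088 for macrophage, -0.41 for lymphocyte and 0.05 for cardiomyocyte genes. None of these genes passed the adjusted threshold with or without that library. With all libraries, 3 of 10 fibroblast, 2 of 9 endothelial and 2 of 6 lymphocyte genes were lower at an unadjusted p under 0.05 in edgeR. So were 2 of 8 pericyte and smooth muscle genes and 1 of 7 macrophage genes, beside 7.24% of all genes in that direction. Of the 8 cardiomyocyte genes 2 were higher at that level, beside 15.4% of all genes in either direction. The adipocyte (6 tested, median -0.08), atrial (5, median -0.29), mesothelial (5, median -0.04), melanocyte (2, median 0.0066) and oligodendrocyte (1, Myrf, at -0.27) lists also had no call. The summed fibroblast level was 1979 to 2378 CPM in male controls, 533 to 2307 CPM in male CKD mice, 1911 to 2123 CPM in female controls and 1409 to 2234 CPM in female CKD mice. Whether the negative values of 5 of the 6 genes go with these cell types was not tested.

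The spread between libraries was larger than counting alone gives. For Scn7a the coefficient of variation over the 16 libraries was 26.9%, against 4.26% from counting, and 17.7% without male CKD mouse 4. For Mbp it was 20.0% against 13.1%, for S100b 32.0% against 23.3%, for Gfra3 37.1% against 24.8%, for Kcna1 48.0% against 23.5% and for Sox10 50.4% against 31.1%. For the 5 genes other than Scn7a, counting error alone is thus at least 13.1% at the mean count per library.

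The 6 genes form 15 pairs, whose log2 CPM was correlated over the 16 mice. Of these 1 passed an adjusted p of 0.05: Gfra3 and Kcna1, with Pearson's r of 0.764 (permutation p 0.00036, adjusted 0.0054 over the 15 pairs) and Spearman's rho of 0.715 (permutation p 0.00257, adjusted 0.0386). The relation was 0.565 without the 2 libraries farthest from the median of Gfra3, 0.668 without male CKD mouse 4, 0.766 for deviations from the 4 group means and 0.824 within the 10 libraries of title code number 6. Both without male CKD mouse 4 and within that title code number, 0 of 15 pairs passed the adjusted threshold, so the call is lost there. Kcna1 and Scn7a had an r of 0.675 (permutation p 0.0237, adjusted 0.08895), which was 0.0936 without male CKD mouse 4 and thus rests on that library. S100b had an r of 0.617 with Kcna1 and 0.5945 with Gfra3 (adjusted p 0.07575 for each by permutation), and without the 2 farthest libraries these were 0.336 and 0.372. Mbp and Sox10 had an r of 0.3785 (permutation p 0.146, adjusted 0.289). Sox10 and Scn7a had an r of -0.107 (permutation p 0.663, adjusted 0.663). It was -0.509 without male CKD mouse 4 and 0.587 with GC and length trends removed.

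Each library has its own trend with GC content, measured here as Spearman's correlation over genes between a gene's GC content and its log2 CPM relative to the mean library. The trend lay between 0.0069 and 0.5605 in male controls, 0.0314 and 0.41 in male CKD mice, -0.474 and 0.1485 in female controls and -0.5015 and 0.0048 in female CKD mice. Sox10 followed it with an r of 0.725 over the 16 libraries (permutation p 0.0013, adjusted 0.0078 over the 6 genes), and a rho of 0.565 (permutation p 0.02465, adjusted 0.07395). This was 0.665 without the 2 farthest libraries, 0.683 for deviations from group means and -0.314 once the GC and length trends had been removed from the values. Scn7a had an r of -0.451 (permutation p 0.067, adjusted 0.145) and a rho of -0.6765 (permutation p 0.00495, adjusted 0.0297). Of the 6 genes Sox10 has the highest GC content (0.6273) and Scn7a the lowest (0.4022). By the way the trend is defined, a gene rich in GC tends to a positive r and a gene poor in GC to a negative one. The signs for Sox10 and Scn7a are therefore no independent finding. The remaining 4 genes had r between 0.0611 (Kcna1) and 0.4625 (Gfra3), none past the adjusted threshold.

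**Figure D5:**
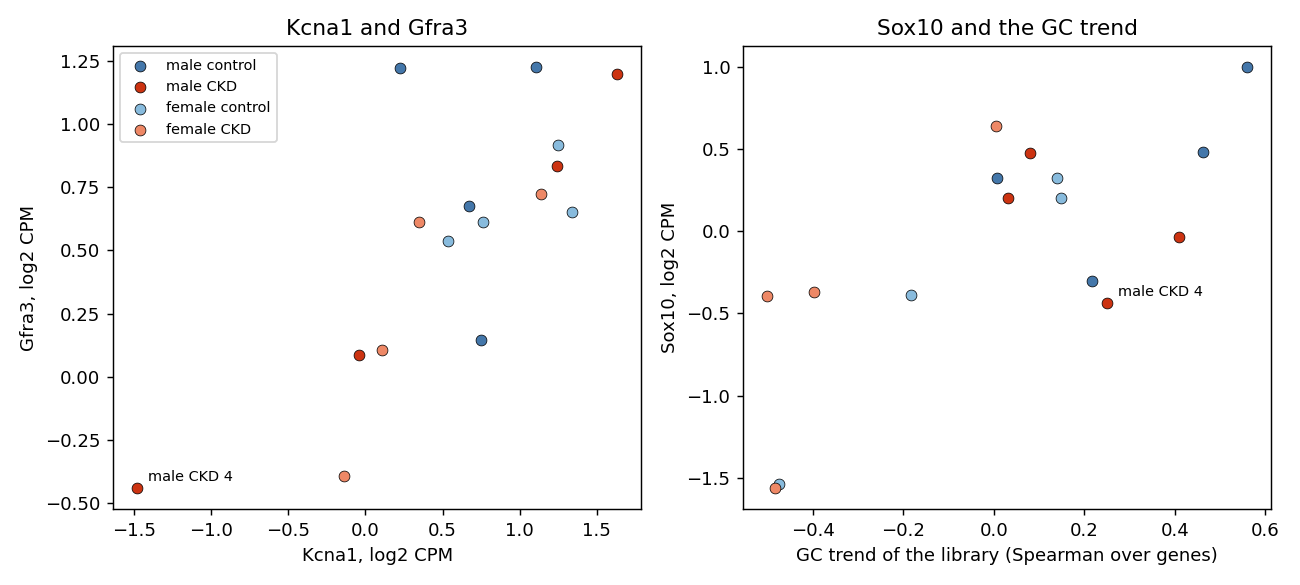
Left, log2 CPM of Gfra3 against Kcna1, and right, log2 CPM of Sox10 against the GC trend of the library (Spearman's correlation over genes), with 1 point for each of the 16 libraries coloured by group. The points rise together in both panels (r of 0.764 and 0.725), and male CKD mouse 4 is the lowest in both axes on the left.

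For each gene the 3 tested genes with the most similar log2 CPM over the 16 libraries were taken from 12765 candidates. With so many candidates the highest values are high by selection, and they are a description without a test. Scn7a had an r of 0.986 with Cfhr2 and of 0.968 with Mecom, a transcription factor. These were 0.93 and 0.833 without male CKD mouse 4. Sox10 was closest to Cspg4 (r 0.942), a proteoglycan of pericytes and glial precursors, Nlgn2 (0.939), an adhesion protein of inhibitory synapses, and Col5a3 (0.936), a collagen chain. Kcna1 was closest to the centrosome gene Nin (0.914), Fndc3b (0.855) and C1qtnf1 (0.852), and S100b to the extracellular matrix gene Thbs3 (0.894), Nkd2 (0.889), an inhibitor of Wnt signalling, and Tbc1d1 (0.885). The highest values for Gfra3 were those of Foxred2 (0.852), Srpx2 (0.813) and the growth factor Tgfb3 (0.808). Mbp had no neighbour above 0.777 (Mroh2a), followed by Mapk11 (0.775) and Gpr4 (0.774), a receptor for protons. Without male CKD mouse 4, in the order named, the values for Mbp were 0.633, 0.655 and 0.682. Those for Kcna1 were 0.821, 0.714 and 0.656, and those for Gfra3 0.8005, 0.739 and 0.761. S100b had 0.861, 0.853 and 0.852 there, and Sox10 0.946, 0.938 and 0.9355. No gene was among the 3 nearest of more than 1 of the 6.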

How the data were processed

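Bulk RNA was sequenced from the ventricles of 16 mice as 50 bp paired-end reads on a HiSeq2500 after extraction with a Qiagen RNeasy Plus Mini kit, per the labels' protocols. The deposited values are raw counts of reads per gene in 1 table of all samples, which the authors did not normalize. The submitters' processing notes list the mm10 genome, STAR 2.6.1d, Subread 1.6.3 with featureCounts, DESeq2 1.30.1, MultiQC and FastQC. Which annotation was used, whether strand was counted and how multimapping reads were handled is not given in the sources here. Exons of the 6 genes overlap those of no other gene on either strand in GENCODE M21 (GRCm38), which gave names, coordinates and exon lengths for 33367 of 33399 identifiers.

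The groups come from the treatment and sex labels. Mouse numbers within a group are names in record order. Separate mice are labelled as separate samples, and the p-values measure the spread between them. The members and gene lists were chosen with earlier results of these data known, so no count over a list is independent evidence.

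Counts were tested with edgeR 4.0.16 in R 4.3.3 (TMM scaling, filterByExpr with a minimum count of 10 and a minimum total of 15, quasi-likelihood F test, two-sided, Benjamini-Hochberg over 16400 genes, threshold 0.05). CKD was compared with control with sex as a covariate, and the sexes were compared in the same model. Effects in each sex and their difference came from a model of the 4 groups. CPM uses TMM-scaled library sizes, log2 CPM a prior count of 2, and 3 counts were taken as the floor for detection. The test was checked on counts simulated from edgeR's own model. The simulation held no deviant library, GC trend or title code effect, so it cannot tell how the test behaves under those. Correlations used 100000 permutations, two-sided. Intervals are at 95%.

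Besides the 6 genes, the 4 most abundant members per exon kilobase of each nerve or glia list (Schwann, myelin, axonal channel, neurotrophic, axon guidance, neuron and axon, S100) and any past the threshold were to be named, and for each of the 6 genes its 3 nearest by r. Lists for melanocytes, oligodendrocytes, adipocytes, fibroblasts, endothelium, pericytes and smooth muscle, macrophages, lymphocytes, cardiomyocytes, atrium and mesothelium were markers of other cells. Genes with few counts are named for the check of cell types, and any other gene outside this rule is marked as picked with its values in view.

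The alternatives were DESeq2 1.42.0, limma-voom (limma 3.58.1) with quality weights, RLE and upper-quartile scaling, no filter, a filter of 1 CPM in 8 libraries, a factor for the title code number, only libraries where it is 6, GC and length trends removed by lowess (span 0.3), no sex term, and each library left out. Leaving out male CKD mouse 4 with female control mouse 2, and the correlations without GC and length trends or within title code number 6, were chosen after seeing the data. Values of 4 genes that met the naming rule or the cell type check are left out of the text and the plots, while the counts and medians of lists hold them.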

Additional observations from a re-analysis of the deposited data

Results flagged for a closer look

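In 7 of 136 combinations of a named gene and a group of 4 mice, 1 mouse lay further from the others than Dixon's 95% limit allows; chance alone does so in about 1 of 20. None of the 6 Schwann cell and nerve genes was among them. S100a1 did so in 3 groups: 539.3 CPM in male control mouse 3 against 410.5 to 422.4 in the rest of its group, 706.4 CPM in male CKD mouse 4 against 407.2 to 425.4, and 515.6 CPM in female CKD mouse 2 against 420 to 428. S100a11 stood at 41.05 CPM in male control mouse 3 against 25.45 to 25.96. Erbb3 was low in female control mouse 4, at 15.76 CPM against 19.5 to 19.8. Uchl1 was high in female CKD mouse 1, at 11.72 CPM against 8.693 to 9.116, and Tac1 in male CKD mouse 4, at 7.676 CPM against 4.763 to 5.182.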

How the results depend on the processing

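No paired analysis was possible because the labels carry no replicate numbers. The count of the 6 genes past the threshold was 0 in each of the 5 comparisons under each alternative run; the filter of 1 CPM in 8 libraries tested 5 of the 6 and left out Sox10. For CKD against control over all genes the count was 14, and 398 with DESeq2, 199 with limma-voom, 53 without a filter, 234 with the title code number as a factor, 8 within title code number 6, 27 without GC and length trends, 22 without male CKD mouse 4 and female control mouse 2, and 6 to 43 with 1 library left out. Outside the 6 genes, Ret passed the threshold in 3 alternatives (DESeq2, no filter, and without female control mouse 2), and Gfra2 and Nrp2 in DESeq2. Counting depth limits Sox10, Kcna1, Gfra3 and S100b most. The correlations past the threshold numbered 1 of 15, and 3 for deviations from group means, 5 without GC and length trends, 0 within title code number 6 and 0 to 3 with 1 library left out (0 without male CKD mouse 4).

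The log2 fold changes that took the other sign were all uncalled, and the cause was not tested. With limma-voom these were, over both sexes, Cdh19 0.054, Kcna5 0.057, Cntn2 0.0697, Nrtn 0.37, Nrp1 0.029, Uchl1 -0.0044 and S100a1 -0.0053, in males Sox10 0.055 and Kcna1 -0.041, and for females minus males Sox10 -0.41 and Scn7a -0.21. Upper-quartile scaling gave Kcna1 0.0102 for female over male, and dropping the sex term Nrtn 0.091 for CKD. With the title code number as a factor they were Scn7a -0.10, Cntn2 0.024 and Nrtn 0.059 over both sexes, Kcna1 -0.34 and Scn7a -0.35 in males, Gfra3 0.10 for females minus males and S100b 0.0017 for female over male. Within title code number 6 they were Mbp 0.016, Mal 0.034, Cntn2 0.22, Nrtn 0.14 and Tac1 -0.063 over both sexes, Mbp 0.16, Sox10 0.056 and Gfra3 0.11 in males, Scn7a -0.043 in females, Mbp -0.25, Sox10 -0.44 and Scn7a -0.11 for females minus males, and Gfra3 0.0024 for female over male. Without GC and length trends they were Cntn2 0.086, Nrtn 0.23 and S100a1 -0.043 over both sexes, Scn7a -0.017 in males, Mbp 0.12 and Sox10 0.16 in females, and Mbp 0.17, Sox10 0.12, Gfra3 0.12 and Kcna1 0.14 for female over male. Without male CKD mouse 4 and female control mouse 2 they were Cdh19 0.076, Gfra1 0.074, Mal 0.0047, Nrp1 0.077, Uchl1 -0.066 and S100a1 -0.069 over both sexes, Sox10 -0.15 and Scn7a -0.16 for females minus males, and Scn7a -0.037 for female over male.

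With 1 library left out, the ranges that crossed 0 were, over both sexes, Scn7a -0.045 to 0.19, Cdh19 -0.14 to 0.11, Kcna5 -0.21 to 0.013, Nrp1 -0.083 to 0.041, Nrtn -0.20 to 0.26, Gfra1 -0.23 to 0.021, S100a1 -0.05 to 0.11 and Uchl1 -0.013 to 0.12. In males they were Kcna1 -0.41 to 0.45 and Scn7a -0.15 to 0.36, and in females Mbp -0.15 to 0.12, Scn7a -0.056 to 0.20 and Sox10 -0.62 to 0.27. For females minus males they were Gfra3 -0.37 to 0.21, Scn7a -0.31 to 0.22 and Sox10 -0.23 to 0.67, and for female over male Kcna1 -0.14 to 0.23, Mbp -0.12 to 0.033 and S100b -0.20 to 0.018.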
